A study of Caenorhabditis elegans with 2 samples.

Results

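The regions described here are the NFYA-1 chromatin immunoprecipitation sequencing (ChIP-seq) peaks whose summit lies within 100 kb of either end of a nuclear chromosome of Caenorhabditis elegans. They were found by position alone. The peaks that the authors deposited for both replicates pooled were merged where they overlapped, the summit of the strongest was kept, and 317 of the 29478 merged nuclear regions met the rule. They make 1.08% of the regions, and the 12 ends together make 1.20% of the nuclear genome on build ce11 (the assembly WBcel235). The other 29161 regions are called the rest. Each end is named by its chromosome and side, so that "III right" is the last 100 kb of chromosome III.

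Whole worms were used, all of strain OP404, with genotype unc-119(tm4063) III and the integrated transgene wgIs404, from which NFYA-1 is made with a GFP-FLAG tag at its C-terminus. They were hermaphrodites at the young adult stage. Chromatin broken by sonication was precipitated with an antibody against GFP. The samples form 1 group of 2 biological replicates that share strain, stage, antibody and control, so no treatment or genotype is compared, and all tissues are mixed. The labels do not say whether the worms also make untagged NFYA-1.

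NFYA-1 belongs to NF-Y, a transcription factor complex of A, B and C subunits whose A subunit recognises the sequence CCAAT. Chromosomes of this species end in tandem copies of TTAGGC, kept up by telomerase and covered by proteins that bind single-stranded or double-stranded repeats. Next to these repeats lie sequences that are often duplicated within or between chromosomes, mixed with genes. Reads from duplicated sequence cannot be placed at 1 position, so the share of unique sequence is given beside the counts. It is the share of 31-base words that occur once in the genome on either strand.

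Sequences of 7 regions carry the results below and are shown with every CCAAT and TTAGGC, read on either strand, in capitals. The pot-3 and tig-3 regions are those that also overlap a region of the authors' final list, which was thresholded with the irreproducible discovery rate. The 2L52.2 region is the one nearest to any end. The sftb-6, mdt-29 and num-1 regions are the next strongest but for pgs-1, which ranks between mdt-29 and num-1, has no CCAAT within 50 bp of its summit and is not shown. The region Y46E12BL.7 holds the most copies of the telomere repeat. For mdt-29, whose region was merged from 2 peaks, the peak that holds the summit is shown. The sftb-6, mdt-29, num-1 and Y46E12BL.7 sequences were chosen after their values were seen. All are given on the plus strand of ce11.
pot-3, chrIII:13780163-13780452: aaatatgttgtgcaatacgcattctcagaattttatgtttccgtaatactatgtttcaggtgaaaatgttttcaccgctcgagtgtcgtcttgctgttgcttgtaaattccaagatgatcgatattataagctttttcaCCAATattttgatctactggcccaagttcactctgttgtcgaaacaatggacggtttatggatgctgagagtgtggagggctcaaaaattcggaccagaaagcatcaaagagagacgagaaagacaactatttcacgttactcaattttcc
tig-3, chrII:15248519-15248808: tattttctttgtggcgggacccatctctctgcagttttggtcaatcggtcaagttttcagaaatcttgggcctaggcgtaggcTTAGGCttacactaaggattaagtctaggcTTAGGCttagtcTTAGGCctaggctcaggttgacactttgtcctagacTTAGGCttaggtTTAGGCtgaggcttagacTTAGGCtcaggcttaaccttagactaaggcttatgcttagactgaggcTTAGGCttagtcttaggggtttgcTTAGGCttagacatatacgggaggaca
2L52.2, chrII:193-482: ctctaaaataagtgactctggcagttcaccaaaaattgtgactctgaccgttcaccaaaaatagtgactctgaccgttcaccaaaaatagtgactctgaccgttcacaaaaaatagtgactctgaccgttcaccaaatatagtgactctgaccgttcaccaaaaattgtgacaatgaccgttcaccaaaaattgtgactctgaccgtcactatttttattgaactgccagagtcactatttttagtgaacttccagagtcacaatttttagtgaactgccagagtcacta
sftb-6, chrII:98674-98963: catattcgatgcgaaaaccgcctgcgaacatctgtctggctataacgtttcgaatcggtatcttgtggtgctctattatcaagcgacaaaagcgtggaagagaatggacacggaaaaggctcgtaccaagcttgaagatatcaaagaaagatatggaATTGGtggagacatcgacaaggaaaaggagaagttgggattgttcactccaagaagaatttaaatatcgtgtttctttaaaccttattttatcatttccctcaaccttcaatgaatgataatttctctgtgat
mdt-29, chrIII:13778210-13778499: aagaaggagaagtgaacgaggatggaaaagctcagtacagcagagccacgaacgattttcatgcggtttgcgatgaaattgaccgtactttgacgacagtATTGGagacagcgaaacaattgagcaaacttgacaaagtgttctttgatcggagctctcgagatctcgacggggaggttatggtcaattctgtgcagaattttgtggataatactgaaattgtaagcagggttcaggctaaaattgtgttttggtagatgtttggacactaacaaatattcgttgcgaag
num-1, chrV:20834050-20834339: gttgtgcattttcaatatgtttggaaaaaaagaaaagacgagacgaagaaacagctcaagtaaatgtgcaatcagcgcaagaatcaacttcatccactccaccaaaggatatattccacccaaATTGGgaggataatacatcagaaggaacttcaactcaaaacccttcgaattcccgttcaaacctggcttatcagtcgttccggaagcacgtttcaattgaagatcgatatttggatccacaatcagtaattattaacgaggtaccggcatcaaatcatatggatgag
Y46E12BL.7, chrII:15255201-15255490: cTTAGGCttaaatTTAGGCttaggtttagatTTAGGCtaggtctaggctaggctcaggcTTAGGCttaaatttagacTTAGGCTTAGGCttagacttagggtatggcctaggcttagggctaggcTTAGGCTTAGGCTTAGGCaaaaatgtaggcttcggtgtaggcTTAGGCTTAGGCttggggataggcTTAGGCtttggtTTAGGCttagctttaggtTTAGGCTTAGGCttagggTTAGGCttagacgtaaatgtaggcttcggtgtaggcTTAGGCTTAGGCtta
The pot-3, sftb-6, mdt-29 and num-1 sequences shown each hold 1 CCAAT, at 2, 12, 41 and 18 bp from the summit in that order. The tig-3 and Y46E12BL.7 regions hold no CCAAT but 8 and 18 copies of TTAGGC. The 2L52.2 region holds neither motif.

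The strongest nuclear region of the whole pooled list lay near an end. It was in pot-3 on III right, with its summit 3493 bp from the end of the chromosome and 93 bp downstream of the gene's start, inside a coding exon. The gene pot-3 encodes a relative of POT1, the protein that binds the single-stranded overhang of telomeres. Signal here is the value the authors deposited for each peak. Its scale is unknown here, so it is compared only within a list, and no error can be given for it. The pot-3 region had a signal of 83.4 in the pooled list, 45.4 in replicate 1 and 44.5 in replicate 2. It ranked 1 of all nuclear regions in the pooled list and in replicate 1, and 2 in replicate 2. Of its 31-base words 96.9% were unique.

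Around pot-3, 5 regions lay within 6 kb of the end of III right, and no other lay within 35 kb of it. The next strongest of the 5 was in a coding exon of mdt-29, which encodes a subunit of the Mediator complex that links transcription factors to RNA polymerase. Its signal was 36.4 (rank 121 of the pooled list), with 16.0 in replicate 1 and 20.6 in replicate 2. The other 3, in a coding exon of pot-3, upstream of the gene and just past its end, had pooled signals of 19.95, 19.84 and 18.39. Each replicate list lacked 1 of these 3: the region in the coding exon was absent from replicate 1, and that past the gene was absent from replicate 2. The list of genes for telomere proteins holds 8 genes, of which pot-3 is the only one near an end. Of the 7 others, 4 (57.1%) held a summit.

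The second end region of the final list was in an intron of tig-3 on II right, 30757 bp from the end. The gene encodes a ligand of the TGF-beta family. Its pooled signal was 43.0 (rank 17), but the replicates placed it far apart, at rank 3465 in replicate 1 with a signal of 10.9 and at rank 6 in replicate 2 with a signal of 34.2. Final regions were thus 2 of the 317 (0.631%, exact 95% interval 0.0765 to 2.26%) against 69 of the rest (0.237%). The interval holds the share in the rest, and intervals here and below cover the counting of regions only.

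The tig-3 region stood in a run of 7 regions between 24 and 31 kb from the end of II right, all outside coding exons. The sequences shown above for tig-3 and Y46E12BL.7 are the ends of this run. Y46E12BL.7 is the nearest gene start to the outermost region, whose pooled signal was 26.2, with none in replicate 1 and 19.1 in replicate 2. A further region of the run, upstream of Y46E12BL.6, held 7 copies of TTAGGC and had signals of 25.7 in the pooled list, 6.17 in replicate 1 and 16.4 in replicate 2. These 3 repeat-bearing regions were the strongest of the run. Replicate 1 overlapped only 2 of the 7 and replicate 2 all 7, so the run rests mostly on replicate 2.

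Across the ends as a whole, the share of regions with the telomere repeat was close to that elsewhere. At least 1 copy of TTAGGC was found in 23 of the 317 regions (7.26%, interval 4.66 to 10.7%) and in 7.10% of the rest, and at least 8 copies in 2 (0.631%) and in 0.580%. Within 50 bp of the summit the shares were 2.84% and 2.95%. In the genome sequence the outer 5 kb of each end held between 22 and 100 copies running toward the end, and the terminal runs of the repeat were 131 to 432 bp long. No summit lay in a terminal run. The nearest, that of 2L52.2, was 337 bp from the end of II left, where the run is 173 bp long.

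**Figure D1:**
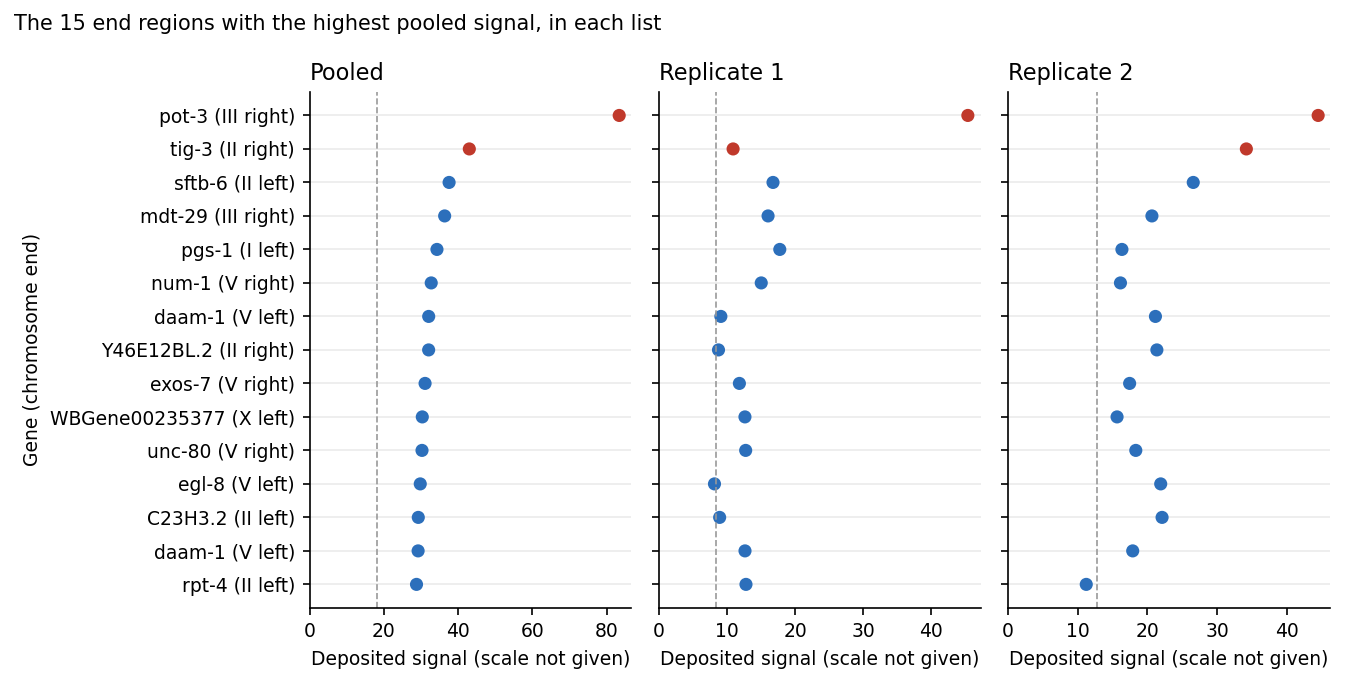
Deposited signal (horizontal axis, scale not given) of the 15 end regions with the highest pooled signal, in the pooled list and in each replicate list; red marks the 2 regions that overlap the final list, and dashed lines the median of the pooled end regions overlapped in that list. The pot-3 region stands apart in the pooled list and in replicate 1, and tig-3 is high in replicate 2 with 34.2 but not in replicate 1 with 10.9.

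Below these regions, the strongest at the ends were spread over genes of many functions. The region in a coding exon of sftb-6 on II left, for a subunit of the SF3B splicing complex, had a pooled signal of 37.6 (rank 90), with 16.8 and 26.6 in replicates 1 and 2. In a coding exon of pgs-1 on I left, for an enzyme of phosphatidylglycerol synthesis, the pooled signal was 34.3, with 17.8 and 16.3 in the replicates. For num-1 on V right, the worm Numb, an endocytic adaptor, it was 32.8, with 15.04 and 16.12. These 3 were above the median in both replicate lists, which was 8.44 over the 206 end regions overlapped in replicate 1 and 12.7 over the 250 overlapped in replicate 2.

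Other regions among the 15 strongest were high in replicate 2 and near the median in replicate 1. That was so for daam-1 on V left, a formin that assembles actin filaments, with a pooled signal of 32.1 and replicate signals of 9.11 and 21.1. Y46E12BL.2 on II right had 32.1 with 8.76 and 21.3, and an intron of egl-8 on V left, a phospholipase C beta, had 29.8 with 8.17 and 21.9. In C23H3.2 on II left the values were 29.3, 8.93 and 22.1. For rpt-4 on II left, an ATPase of the proteasome cap, the order was the other way, with 28.8 pooled, 12.8 in replicate 1 and 11.2 in replicate 2, below that list's median. The rest of the 15 were exos-7 on V right, a subunit of the RNA exosome (31.1 pooled), unc-80 on V right, part of the NALCN sodium leak channel (30.3), a further region of daam-1 (29.2) and the only region of X left (30.3). All 15 were overlapped in both replicate lists, 12 had the summit in a coding exon and 7 had a CCAAT within 50 bp of it. Of the rest ranked 1 to 1000, 94.6% were in both lists, 70.1% had the summit in a coding exon and 19.9% had CCAAT.

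At each of the remaining ends the strongest region was weaker than these. On IV right it was in a coding exon of npr-26, a neuropeptide receptor gene, with a pooled signal of 28.6. On I right it was in a coding exon of mtd-1 with 27.4, where replicate 1 ranked it 272 and replicate 2 ranked it 11235. On X right it was in an untranslated exon of tmem-218 with 25.2. On III left it was intergenic, 1205 bp upstream of the cuticle collagen gene col-88, with 24.4. On IV left it was also intergenic, 3494 bp upstream of T05C7.8, with 22.4.

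As a set, the end regions had signals close to those elsewhere. Their median pooled signal was 18.2 (lower and upper quartiles 15.4 and 21.6) against 17.5 (15.3 and 20.9) in the rest. Of the 317, 14 ranked among the 1000 strongest nuclear regions (4.42%, interval 2.44 to 7.30%, against 3.38% of the rest) and 127 among the 10000 strongest (40.1%, interval 34.6 to 45.7%, against 33.9%). The first interval holds the share of the rest and the second lies above it. Replicate 1 overlapped 206 of the 317 (65.0%, rest 62.3%), replicate 2 overlapped 250 (78.9%, rest 76.1%), and 147 were in both (46.4%, interval 40.8 to 52.0%, rest 43.3%). Neither replicate list held 8 of them (2.52%, rest 4.90%). The pooled list was made from both replicates, so this overlap is not independent of it.

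Overlap in both replicates was rarer at weaker ranks, among the end regions and elsewhere. It was 14 of 14 for end regions ranked 1 to 1000 and 42 of 50 (84%) for those after them up to rank 5000, where the rest had 94.6% and 84%. For ranks beyond 20000 it was 17 of 93 (18.3%, interval 11.0 to 27.7%), with 13.9% in the rest. Of the 317, 97 ranked after 10000 and up to 20000, and 93 beyond. The authors' lists have a fixed number of peaks, 30000 in the pooled list, and include background.

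The 12 ends differed widely in the number of regions they held. V right had 58 (exact Poisson 95% interval 44.04 to 74.98) and II left 52 (38.8 to 68.2), together 110 of the 317. IV right had 40, I right 32, V left 27, I left 24 and X right 23. III left had 18, II right 16, III right 14 and IV left 12. X left had 1 (0.0253 to 5.57). Both replicate lists also had the most regions at V right and II left and the fewest at X left. In replicates 1 and 2 there were 51 and 64 at V right, 46 and 47 at II left, 15 and 12 at IV left, and 4 and 2 at X left. The order between these differed in replicate 1, where I right held 43 and IV right 41. X right held 16 in that list, and II right held 10, fewer than IV left.

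**Figure D2:**
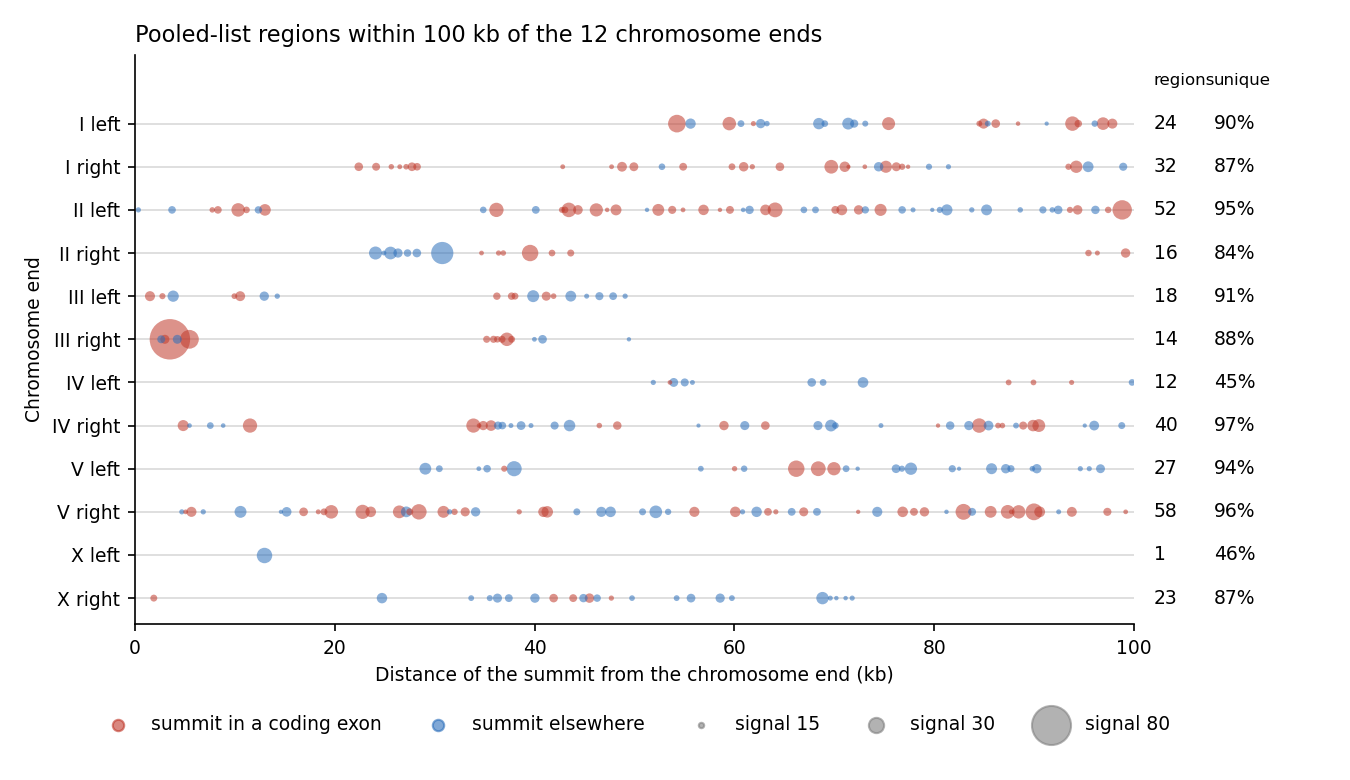
Each point is a region, placed by the distance of its summit from the chromosome end (kb) in the row of its end; size shows pooled signal and colour whether the summit is in a coding exon. The columns at the right give the number of regions and the share of unique sequence, which is 45.1% at IV left, 45.8% at X left and at least 83.7% elsewhere.

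Coding content also differed between the ends, from 2.84% of bases at X left to 36.0% at I right, so each end was set against tiles of 100 kb that cover all 6 chromosomes. A negative binomial regression of the number of regions per tile on the share of coding bases was fitted to all 1003 tiles, which held 29.4 regions on average with a standard deviation of 11.2. None of the 12 ends was called at a Benjamini-Hochberg adjusted p of 0.05, in a fit that called 0.299% of all tiles as having fewer regions and 0.0% as having more. Unadjusted p-values were 0.05 or lower for 47 tiles, of which 1 was an end. The fit calls only extreme tiles, since the 3 tiles called held 0, 0 and 1 region. Tiles are not replicates, and the p sets a tile against the spread of the others.

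Over the 12 ends together, the fit gave 326 regions where 317 were found, a ratio of 0.973. Fewer regions than fitted were found at 7 ends and more at 5. At 11 ends other tiles of the same chromosome had a coding content within 2 percentage points, and the count of 10 of these ends lay within the range of those tiles. The median of the like tiles was above the count at 5 ends and below it at 6. The ratio over the 12 ends together depended on the settings, from 0.828 with ends and tiles of 50 kb to 1.199 with the 5000 strongest regions.

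V right held the most regions beyond its coding content. Its 58 regions compared with 32.4 fitted, a ratio of 1.79 (unadjusted p = 0.0684, adjusted p = 1 by the negative binomial fit). Only 1 of 33 tiles of chromosome V with like coding content held as many, and their median was 32. Its strongest regions were in num-1 and exos-7, and 13 summits fell in unc-80, more than in any other gene near an end. Next in number there were num-1 with 7 and the acyl-CoA synthetase gene acs-12 and the proton-gated channel gene pbo-5 with 4 each. Regions began 4685 bp from the end, in an intron of pbo-5, and the longest stretch with none was that outermost one. Each replicate list had 1 summit in it.

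II left and IV right also had more regions than fitted, within the spread of other tiles. At II left 52 were found where 33.1 were fitted, a ratio of 1.57 (adjusted p = 1 in the negative binomial fit), and 2 of 19 like tiles held as many or more. Its regions included those in sftb-6 and C23H3.2, and 5 summits lay within the span of each of rpt-4 and C23H3.9. Some of the summits within the span of rpt-4 were in coding exons of other genes. At IV right 40 were found where 29.7 were fitted, a ratio of 1.35 (adjusted p = 1 in the same negative binomial fit). There 5 summits fell in npr-26 and 4 in rif-1.1. Unique sequence made 95.6% of V right, 95.4% of II left and 97.0% of IV right, the highest shares among the ends.

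Counts at I left, I right, V left and X right were close to the number of the negative binomial fit (adjusted p = 1 for each). I left held 24 where 26.6 were fitted, I right 32 where 34.7 were, V left 27 where 23.9 were and X right 23 where 21.5 were. The regions of I left began only 54246 bp from the end, in pgs-1. The outer stretch without any overlapped 7 protein-coding genes, counting pgs-1 itself, whose summit bounds the stretch. Among the others were nlp-40, a neuropeptide gene, and sesn-1, for sestrin. That stretch had 86.8% unique sequence and ranked 67 in length among the summit-free stretches of the nuclear genome. Replicate 1 had 0 summits in it and replicate 2 had 1. On I right the outermost 22399 bp held no summit in the pooled list, with 1 in replicate 1 and 0 in replicate 2. This stretch contains 4 ribosomal RNA genes and had 61.1% unique sequence. Summits on I right fell most often in tep-1, for a thioester-containing protein (8), in the lipid transfer protein gene bltp-2 (7) and in pole-1, the catalytic subunit of DNA polymerase epsilon (4).

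III left, III right and II right had fewer regions than fitted, with ratios of 0.674, 0.487 and 0.703 (adjusted p = 1 for each in the negative binomial fit). II right was the only end outside the range of its like tiles, 16 regions against 30 to 44 in 3 tiles. In the list of replicate 1 it held 10, and its log2 ratio to the fitted number was -1.16 where the pooled list gave -0.51. Each of these ends had regions in clusters with long stretches between them. On III right the 9 regions beyond the pot-3 cluster lay between 35 and 50 kb from the end, in or nearest to K08E3.2, the tyrosinase gene tyr-2 and W06F12.3. From there a stretch of 50745 bp without a summit reached past the 100 kb limit over the kinase gene lit-1 and the cullin gene cul-2, and 97.0% of it was unique. III left had 2 clusters, over fbxa-6, npr-30 and the nuclear hormone receptor gene nhr-80 in the outer 15 kb and over clp-10 and col-88 from 36 to 50 kb. Beyond them 59827 bp were free of summits of the pooled list, with 73.6% unique sequence. In that stretch replicate 1 had 4 summits and replicate 2 had 1. II right had 51825 bp without a summit between Y46E12BL.2 and gst-35, a glutathione S-transferase gene. Replicate 1 had 1 summit in each of these long stretches of III right and II right, and replicate 2 had none.

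IV left held 12 regions where 26.6 were fitted, a ratio of 0.451 (negative binomial fit, unadjusted p = 0.120, adjusted p = 1). The outermost 51881 bp held none in the pooled list (1 in replicate 1, 0 in replicate 2), and 10.1% of that stretch was unique sequence. It is an inverted duplication in the reference: the genes frm-5.2, Y38C1AB.5, trpl-3 and Y38C1AB.3 are followed by a further Y38C1AB.3 and trpl-3, frm-5.1 and a further Y38C1AB.5, each on the opposite strand to its partner. Of the 31-base words of the whole end, 46.8% had an inverted copy within it. When unique sequence was added to the fit, 11.9 regions were fitted at IV left (ratio 1.01), against 12 found. This term was added after the data were seen, and it rests on few tiles, since unique sequence made under 50% of only 8 tiles, of which IV left and X left are 2. The 12 regions were mostly in or nearest to T05C7.4, scl-23 and the protein kinase C gene tpa-1, and none ranked among the 5000 strongest.

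X left was the emptiest end, with 1 region where 19.0 were fitted (ratio 0.0527; negative binomial fit, unadjusted p = 0.000523, adjusted p = 0.105). Its summit was at position 12870, 572 bp upstream of a pseudogene without a symbol (WBGene00235377). Its signal was 30.3 in the pooled list, 12.6 in replicate 1 and 15.6 in replicate 2. From there 109099 bp held no summit in the pooled list (1 in each replicate list), the stretch ranked 4 in length in the nuclear genome. That stretch overlaps 7 protein-coding genes, and 45.6% of it was unique. It reaches past the 100 kb limit, to a summit in an intron of the F-box gene fbxa-16, 121969 bp from the end. The F-box genes fbxa-221 and fbxa-222 are also among the 7. None of these F-box genes is counted among those near the ends. Of the 31-base words of X left, 34.0% had copies only outside this end. With unique sequence in the negative binomial fit, 9.25 regions were fitted at X left (unadjusted p = 0.0170, adjusted p = 0.740). The log2 ratio to the fit on coding content was -4.25 in the pooled list, -2.21 with the 4 regions of replicate 1 and -3.26 with the 2 of replicate 2. In the negative binomial fit the end was called as having fewer regions when the coding term was left out (adjusted p = 0.0197), when exon bases of any gene took its place (adjusted p = 0.0202) or when ends and tiles were 200 kb long (adjusted p = 0.00891), and no like tile of the same chromosome exists for it.

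**Figure D3:**
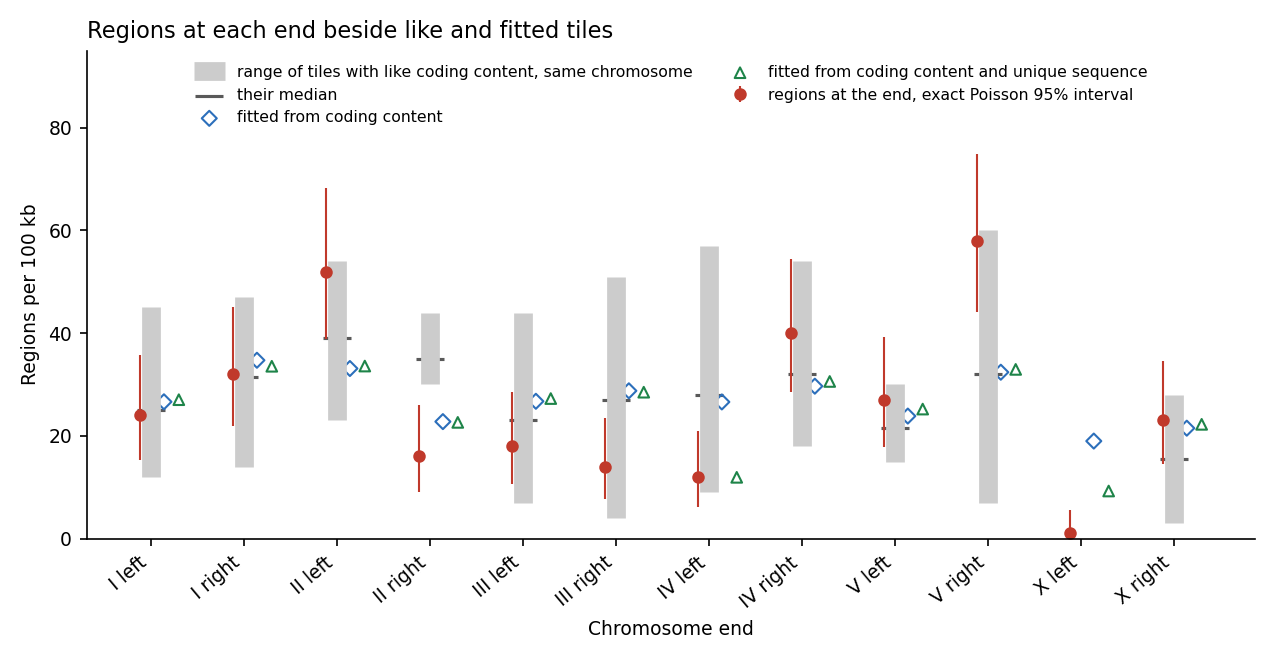
Regions per 100 kb at each of the 12 ends (red, with exact Poisson 95% intervals), the range and median of tiles of the same chromosome within 2 percentage points of coding content (grey; none for X left, 3 for II right), and the numbers fitted from coding content alone (blue) and with unique sequence (green). The fitted numbers part at IV left, from 26.6 to 11.9, and at X left, from 19.0 to 9.25.

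By distance, the outer 30 kb of the ends held fewer regions than the remaining 70 kb. There were 59 regions in the outer 30 kb, or 16.4 per 100 kb (interval 12.5 to 21.1), and 258 from 30 to 100 kb, or 30.7 per 100 kb (27.1 to 34.7), the latter close to the 29.4 of the rest. The boundary was chosen after the counts by distance were seen. Coding content was 21.2% in the outer zone and 19.3% in the inner, whereas unique sequence was 74.4% and 87.1%. Per 100 kb of unique sequence the densities were 22.0 (16.8 to 28.4) and 35.3 (31.1 to 39.8), beside 32.2 in the rest. Because the boundary was chosen from these counts, the intervals are no test of the difference between the zones. The part of repeated sequence in it was not tested. The density was 17.2 and 16.4 in the lists of replicates 1 and 2, and 19.3 without IV left and X left.

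Regions of the outer 30 kb were not evenly shared, since 17 of the 59 were at V right and none at I left or IV left. At 6 ends the nearest region was within 5 kb. These were, from the outermost inward, upstream of 2L52.2 on II left, fbxa-6 on III left, cTel55X.1 on X right, past pot-3 on III right, pbo-5 on V right and the astacin protease gene nas-6 on IV right. Their pooled signals were 14.8, 21.4, 17.0, 18.4, 14.7 and 23.0, and none ranked better than 4507. The 2L52.2 and pbo-5 regions were absent from replicate 1, and that past pot-3 was absent from replicate 2. The outer regions did not differ beyond their intervals from the inner ones in coding exon share (55.9% and 49.6%), in CCAAT share (20.3% and 19.8%) or in overlap by both replicates (47.5% and 46.1%).

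**Figure D4:**
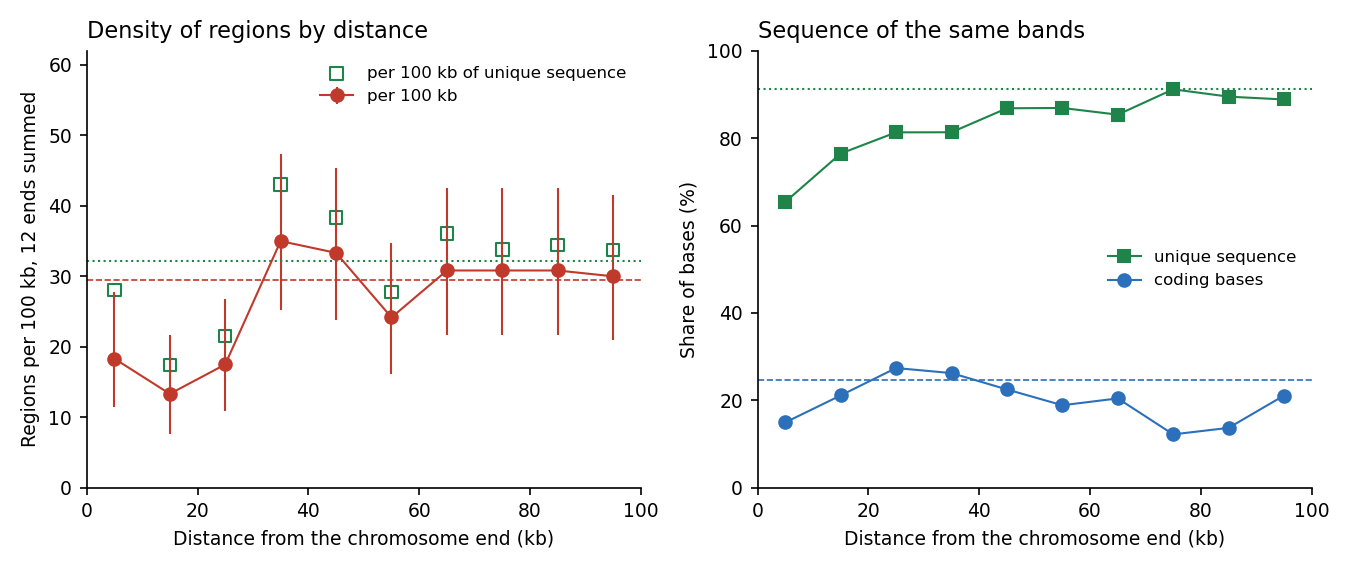
Left, regions per 100 kb in bands of 10 kb from the chromosome end over all 12 ends (red, exact Poisson 95% intervals) and per 100 kb of unique sequence (green); lines mark the rest of the nuclear chromosomes. Right, the shares of unique and of coding bases in the same bands; the outer 3 bands hold 22, 16 and 21 regions and the fourth 42.

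By place, coding exons held the largest share of the end regions. The summit was in a coding exon for 161 of the 317 (50.8%, interval 45.1 to 56.4%), in an intron for 60 (18.9%), intergenic for 50 (15.8%), up to 1000 bp upstream of a gene for 32 (10.1%), in an untranslated exon for 10 (3.16%) and in an exon of a noncoding gene or pseudogene for 4 (1.26%). In the rest these shares were 46.7%, 22.2%, 10.8%, 12.5%, 3.69% and 4.15%. The interval excluded the share of the rest for intergenic regions (11.9 to 20.3%) and for noncoding or pseudogene exons (0.345 to 3.20%), and held it for the others. The intergenic excess was not a property of all ends. The share was highest at IV left, then III left (33.3%), IV right (27.5%), X right (26.1%), V left (22.2%) and III right (14.3%). It was below the rest at I left (8.33%), II left (7.69%), V right (6.90%), I right and II right (6.25% each). The only region of X left was not intergenic. These shares were not set against the intergenic bases available. At protein-coding starts, taken as the 1000 bp before and the 200 bp after the start, lay 82 summits (25.9%), and 25.6% of the rest did.

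Set against the bases available, and over all 12 ends, summits were denser in coding sequence near the ends than elsewhere and sparser outside it. Coding bases near the ends held 67.5 summits per 100 kb (interval 57.5 to 78.8) and those of the rest 55.6 (54.7 to 56.6). Other bases held 16.2 (13.8 to 19.0) and 20.9 (20.5 to 21.2). With the densities of the same chromosomes outside the ends, 134 coding and 198 other summits would be held by these bases, and 161 and 156 were found. Both differences rest on single ends. Leaving out V right brought the coding density to 60.2 (50.1 to 71.7) and leaving out II left to 64.0 (53.6 to 75.9), intervals that hold the rest. Leaving out X left brought the density in other bases to 17.9 (15.2 to 20.99), which also holds the rest. The lists of replicates 1 and 2 gave 61.7 (52.1 to 72.5) and 64.6 (54.8 to 75.6) at the ends with 52.5 and 54.3 in their rest, so that in replicate 1 the interval also held the rest. Unique sequence made on average 83.3% of the end tiles and 91.4% of the other tiles. Its part in the densities of coding and other bases was not tested.

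The coding density was not a property of all ends. It was highest at V right with 117 per 100 kb of coding bases (82.0 to 162) and next at II left with 89.7 (60.1 to 129), the 2 ends whose intervals lay above the rest. At IV left it was 21.4 (5.84 to 54.9), below the rest, and at X left 0 of 2844 coding bases, which allows up to 130 per 100 kb. At the other 8 ends the interval held the rest.

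**Figure D5:**
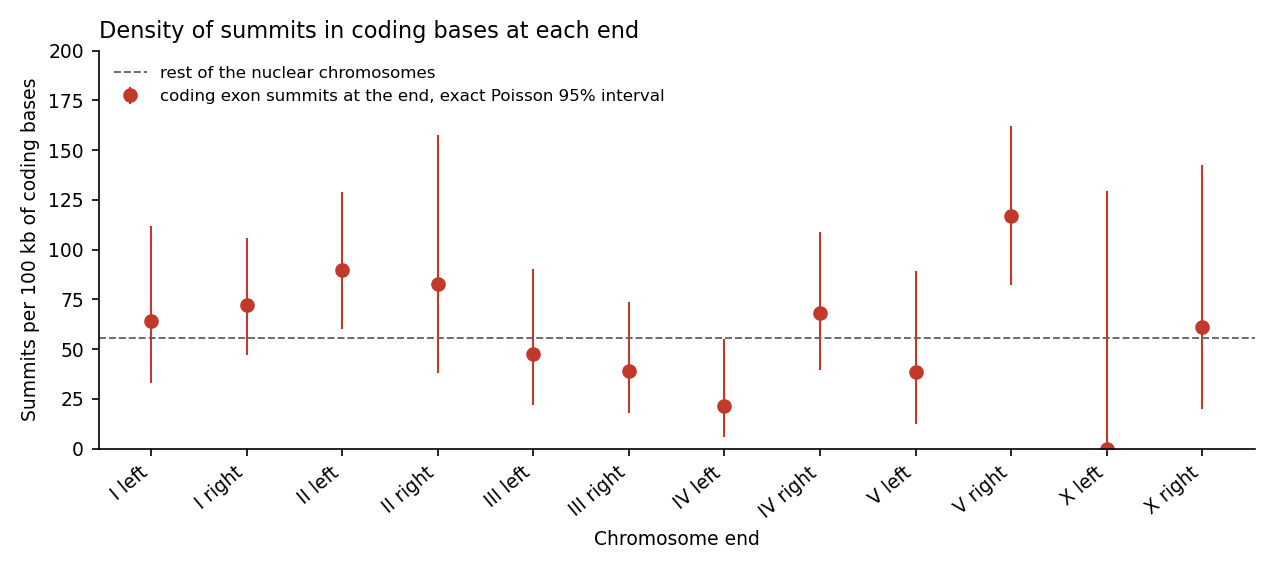
Coding exon summits per 100 kb of coding bases at each end, with exact Poisson 95% intervals; the dashed line is the rest of the nuclear chromosomes at 55.6. V right stands highest at 117, and IV left at 21.4 lies below the line.

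The share of summits near CCAAT was close to that elsewhere. CCAAT on either strand was within 50 bp of the summit for 63 of the 317 (19.9%, interval 15.6 to 24.7%) and for 21.7% of the rest. Within 100 bp the shares were 36.0% and 38.6%, and over the full width of a peak 46.1% and 50.6%. Among the 14 end regions ranked 1 to 1000, 6 held CCAAT within 50 bp (42.9%, interval 17.7 to 71.1%), beside 19.9% of the rest at the same ranks. By end the count ran from 0 of 1 at X left and 1 of 16 at II right to 20 of 52 at II left. The GC content of the 101 bp around the summit had a median of 40.6%, with 39.6% in the rest.

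Of the 177 protein-coding genes near the ends, 86 (48.6%) held a summit, compared with 50.9% of the others. The median gene length was 2708 bp near the ends and 2023 bp among the others. The most summits were in unc-80, which spans 19348 bp and held 13, and in daam-1, which spans 19303 bp and held 10. The longer egl-8, of 22887 bp, held 6, and tep-1, of 7111 bp, held 8. The most in any gene of the genome was 45. Few members of the large gene families lay near the ends, with 2 chemoreceptor genes against 1368 elsewhere, 2 F-box genes against 320, and 1 each of the C-type lectin, nuclear hormone receptor, cytochrome P450 and cuticle collagen genes. Neither chemoreceptor gene held a summit. Of the others fbxa-6, clec-264, nhr-80, cyp-29A3 and col-88 each held at least 1, with best signals of 21.4, 21.6, 20.4, 16.4 and 20.01. Elsewhere 44.5% of the collagen genes to 67.4% of the lectin genes held a summit, with the other 4 families between them. Among 21 pseudogenes 2 held at least 1 (9.52%, others 35.5%), and so did 3 of 82 noncoding RNA genes (3.66%, others 5.03%). Of these 3, the entries named F31D4.10 have the same coordinates and share 1 summit. The summit in C06A12.17 was also in a coding exon of T02D1.7. None of the 27 piRNA genes held a summit (others 0.606%), and none of the 4 ribosomal RNA genes, as for the 16 others.

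Signals on either side of the 100 kb limit overlapped. The regions just inside it, 1 at each end, lay at 12869 to 99805 bp with signals of 13.8 to 37.6 and a median of 17.8. Those just outside lay at 100097 to 122168 bp with signals of 13.8 to 33.8 and a median of 18.0.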

How the data were processed

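ChIP-seq peak lists of 2 biological replicates were used. Per the deposited descriptions of the files, the authors made a list for each replicate and for both pooled from the alignments and a shared control, and thresholded a final list with the irreproducible discovery rate. The deposited signal value of each peak has no stated scale; it ranks peaks within a list. Aligner and caller are not stated by the labels. The lists hold no read counts, so the depth is unknown. Lists on build ce10 were not used here.

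Of the 30000 pooled peaks, 29974 were nuclear. An overlap of 1 bp was enough to merge peaks, and 8 of the end regions came from several peaks. Genes were those of Ensembl release 115 on WBcel235. Named genes are those of the strongest and nearest region at each end, the 15 strongest, the final regions and the listed families; genes with many summits or in the described clusters were named after their values were seen. The members and lists were chosen with earlier results of these data known. Tiles were fitted with a negative binomial regression on coding content and its square, with tile length as offset, two-sided tail p-values and Benjamini-Hochberg adjustment over the 1003 tiles. Intervals are exact Poisson or Clopper-Pearson at 95%. The labels number the samples as biological replicates; 1 group of 2 allows no test across samples. Alternatives covered the list, end width, merging, signal rank, fit terms and motif window. Fits used statsmodels 0.14.6 and intervals scipy 1.17.1, under Python 3.11.15 with numpy 2.4.6 and pandas 2.3.3; plots were drawn with matplotlib 3.10.9.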

Additional observations from a re-analysis of the deposited data

How the results depend on the processing

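No paired analysis was possible because the 2 samples form 1 group. The number of end regions was 308 to 316 in the lists of 1 replicate alone and 325 without merging. It was 127 and 64 when only the 10000 or 5000 strongest regions were kept, and 141 and 727 for ends of 50 and 200 kb, as fewer regions or a different length of sequence enter. No end was called in the fit on either replicate list, without merging, on the stronger regions, at 50 kb, with GC content or unique sequence added, or with the ends left out. With 200 kb tiles, with exon bases or with no coding term, 1 end was called each time, X left. Those fits called 3 of 501, 5 of 1003 and 4 of 1003 tiles in that order, all with fewer regions. A Poisson in place of the negative binomial leaves no room for spread between tiles. With it 5 ends were called (X left, III right and IV left with fewer, II left and V right with more). Of all 1003 tiles, the Poisson called 94 as having fewer regions and 64 as having more. The adjusted p of X left ran from 1.93e-05 with the Poisson to 1 at 50 kb and for the stronger regions, and the negative binomial alternatives gave 0.00891 or more.

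The log2 ratio of regions to the fitted number changed sign in these cases, none of them called; their causes were not tested. With the list of replicate 1 it was 0.33 at I right and -0.40 at X right. With the 10000 strongest regions it was 0.34 at I left, and with the 5000 strongest 0.71 at I left, 0.24 at II right and -1.63 at X right. At 50 kb it was 0.081 at II right, 0.45 at III left and -1.03 at V left, and at 200 kb 0.14 at I left, 0.068 at III left and 0.14 at IV left. Without a coding term it was 0.12 at I right, -0.12 at V left and -0.35 at X right, and with unique sequence 0.0099 at IV left. II left, IV right and V right stayed above the fitted number and III right and X left below it in all 13 alternatives.

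The coding exon share was 59.8% for the 10000 strongest regions and 47.3 to 56.0% in the other alternatives. It was also higher at stronger ranks in the rest. There it was 70.1% for ranks 1 to 1000, 59.6% after them up to rank 5000, and 51.3% from there up to 10000. For end regions of the same ranks it was 78.6%, 64% and 52.4%, with intervals that held the shares of the rest. CCAAT shares of 36.0% and 46.1% within 100 bp and over the full peak rose with the window, as in the rest. The median signal was 7.87 and 12.1 in the lists of replicates 1 and 2, whose scales differ from that of the pooled list. In the outer 30 kb the density was 17.2 and 16.4 per 100 kb in the lists of replicates 1 and 2. Without IV left and X left it was 19.3, and it was 15.8 in the outer 20 kb and 21.0 in the outer 40 kb. These 5 alternatives were added after the data were seen, as were those for the coding density and the unique sequence term.

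Depth is unknown, so how far it limits the weaker regions cannot be given. The lists have a fixed length that includes background, and most end regions are not in both replicate lists. The share of unique words describes the reference sequence only; how reads with several positions were treated is not stated.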
